A study of Mus musculus with 12 samples.

Results

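Potassium channel genes were followed by RNA-seq in whole mouse retina after the transcription factor gene Otx2 had been deleted from adult photoreceptors. They are here the protein-coding genes whose symbol starts with Kcn and that had at least 10 counts in at least 3 of the 12 libraries, leaving out Kcnj8, Kcnj10 and Kcnj13. Of 94 protein-coding Kcn genes, 3 were left out by name, 12 were below the count limit and 79 remained, out of 54146 genes counted in all. The 3 genes closest to the limit on its inner side were Kcnq1, with 10 counts in 3 libraries, Kcng3 in 4 and Kcnh3 in 5, and the closest on its outer side were Kcnmb1, which reached 12 counts in 1 library, and Kcnn4, which reached 10 counts in 1. The other 10 genes below the limit did not exceed 6 counts in any mouse.

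Each library was the RNA of retina with its pigment epithelium from 1 mouse, 3 mice per condition. By the paper all strains were kept on a 129/SV background. The P30 control mice (mice 1 to 3) are labelled only as control with the source Control_Crx, so that their genotype at the Cre transgene and at the floxed allele is not given. The labels give these controls no time after tamoxifen, and the paper places P30 at the time of injection. The cKO mice carried Crx-CreERT2 and Otx2 flox/flox, received tamoxifen once at P30 and were killed at P32 (mice 4 to 6), P34 (mice 7 to 9) or P38 (mice 10 to 12), which is 2, 4 and 8 days later. Crx drives the recombinase in photoreceptors, so the deletion is directed to these cells. Age, time after tamoxifen and deletion changed together, and their parts cannot be told apart. Otx2 itself had 293 to 377 CPM (counts scaled to equal library size with TMM factors) over the 12 mice, but recombination removes only 1 of its coding exons and the gene's total count does not measure the deletion.

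Potassium channels let potassium leave or enter the cell down its gradient and set the resting potential and the shape and timing of electrical responses. Voltage-gated channels open on depolarization, inward rectifiers and tandem-pore leak channels act near rest, and calcium- or sodium-activated channels follow intracellular ions. Silent subunits form no channel alone but join voltage-gated subunits and alter their opening, and auxiliary subunits bind the pore from outside or inside. In photoreceptors, channels that include the silent subunit of Kcnv2 carry the sustained potassium current of the inner segment. That current flows out opposite to the inward current through the cyclic nucleotide-gated channels of the outer segment.

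The pore-forming members share a selectivity filter, the stretch of the pore that potassium passes, and its coding bases are shown for members the results return to. The filter was searched in the longest complete coding sequence of each member in the GENCODE M21 transcripts (GRCm38) as threonine, then valine, isoleucine, leucine, threonine, serine or alanine, then glycine, then tyrosine, phenylalanine or leucine, then glycine. This pattern was found once in 21 of the 27 voltage-gated members and in all 10 silent members. It was also found once in 9 of the 10 inward rectifiers and 4 of the 7 calcium- or sodium-activated members. All 11 tandem-pore members held it at least 2 times and none of the 14 auxiliary members held it. Without a match among the pore formers were 6 Kcnh genes, Kcnj14 and the 3 Kcnn genes, which says only that these letters are not in their sequences. Kcnh5 was the only Kcnh gene with a match, and whether each match lies in the pore was not checked. Capitals mark the bases of the filter, in the coding direction, with the neighbouring codons in lower case.
Kcnv2: atctccACCGTGGGCTATGGAgacatg
Kcna5: atgaccACTGTAGGCTACGGGgacatg
Kcnj9: gagaccACCATCGGCTATGGGcaccgg
Kcnma1: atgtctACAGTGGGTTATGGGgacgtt
Kcnk5: atctccACCATTGGCTTTGGGgacttt
The stretch of Kcnv2 lies at chr19:27333648-27333674 on the plus strand. Those of Kcna5 (chr6:126533739-126533765), Kcnj9 (chr1:172326178-172326204), Kcnma1 (chr14:23528407-23528433) and Kcnk5 (chr14:20144642-20144668, its filter 2) are on the minus strand, and all are in coding exons. The silent subunit of Kcnv2 thus carries the same kind of filter as the channel-forming subunit of Kcna5.

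The libraries held 29701483 to 60145034 counts on genes, and the 79 members took 0.353% (P32 mouse 4) to 0.557% (P38 mouse 11) of them. P32 mouse 4 stood apart by transcript length. Over all genes tested, its median log2 deviation from the mean of the 12 mice went from 0.49 for genes under 1500 bases of merged exon to -0.44 for genes of 8000 bases or more, while the other 11 mice stayed between -0.15 and 0.17 in these length classes. The 14 members of 8000 bases or more had a median deviation of -0.85 in this mouse. Their median was -0.275, -0.024 and 0.082 in the P30 mice and 0.242, 0.222 and 0.242 in the P34 mice. In the P38 mice it was -0.188, 0.348 and 0.226. The part of transcript length in the comparisons with P30 was not tested. Libraries also differed in RNA of tissue outside the retina. The summed level of 10 lens markers was 585 to 42759 CPM at P30, 824 to 48527 at P32, 289 to 814 at P34 and 5394 to 13877 at P38, and that of 6 smooth muscle markers was 29.5 to 198 CPM at P30, 11.04 to 48.7 at P32, 9.33 to 13.9 at P34 and 16.7 to 22.7 at P38. No marker of either list was at 0 in any condition. Rod markers summed to 66740.2 to 73287 CPM at P30, 60187 to 66192 at P32, 75537 to 99282 at P34 and 73452 to 110324 at P38. By Xist and Y-linked genes all 3 P30 mice were female, against 2 P32 mice, 1 P34 mouse and 1 P38 mouse. Markers of rods, cones, bipolar, amacrine, ganglion and horizontal cells, Müller glia and pigment epithelium all had counts in every condition.

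In the control retina the members ranged from 0.121 to 512 TPM, a level per length in which counts are divided by merged exon length and scaled to equal totals. Kcnv2 stood at the top with 512 ± 83.7 TPM (SD, n = 3), and the 10 highest members held 67.1 to 68.3%. Of the 79 members, 7 were at 100 TPM or more, 33 between 10 and 100, 21 between 1 and 10 and 18 below 1. Kcnj14 (275 ± 29.8 TPM, SD, n = 3), an inward rectifier, overlapped Kcnab2 (267.5 ± 26.5 TPM, SD, n = 3), an auxiliary subunit of Shaker-type channels that lay above Kcne2. From Kcnj9 downward each member among the 12 highest overlapped the next over the 3 mice.

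**Figure D1:**
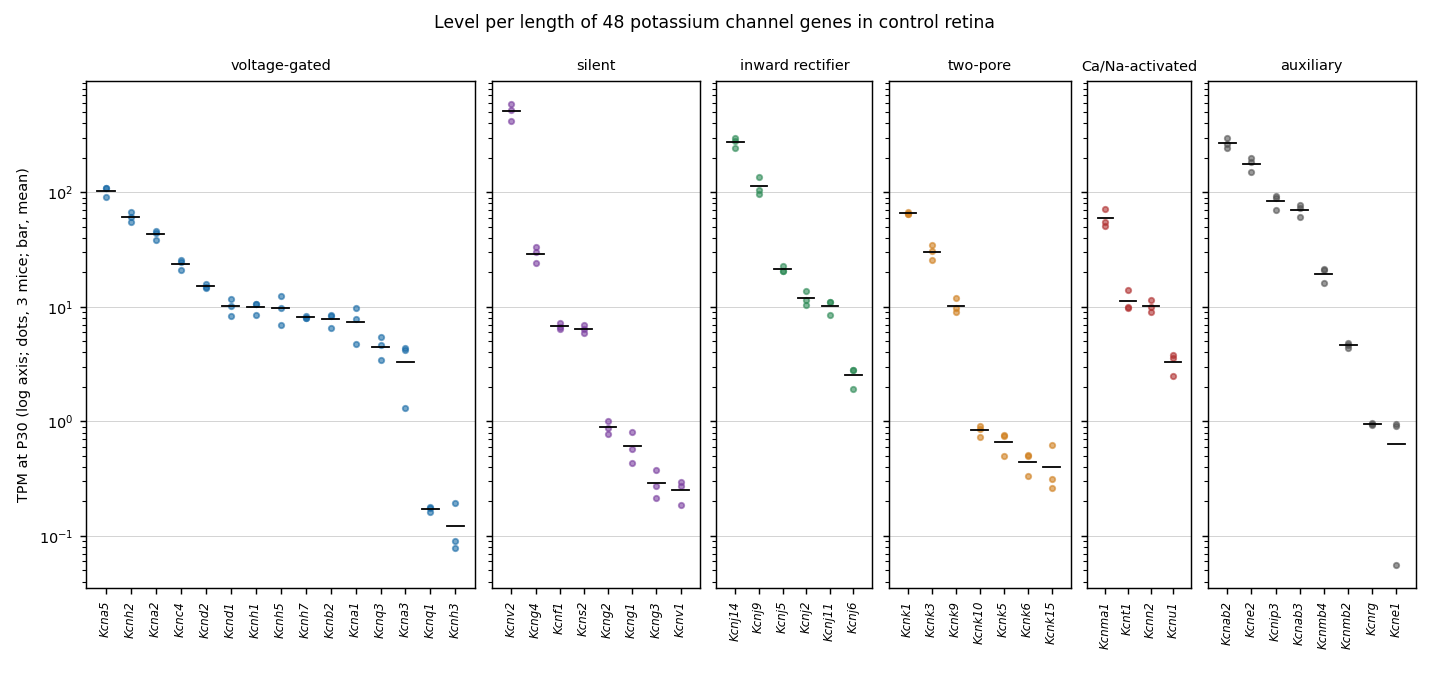
Level of 48 of the 79 members in the 3 P30 control retinas, as TPM of merged exon length on a log axis, by channel class. Dots are mice and bars are means. Kcnv2 (512 TPM) lies far above the next silent member, Kcng4 (29.1 TPM).

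The voltage-gated class was the largest, with 27 members and 32.6 to 35.2% of the members' TPM at P30. Among its highest members were Kcna5 (103 ± 9.83 TPM), a delayed rectifier of the Shaker family, and Kcnh2 (61.1 ± 5.68 TPM), which encodes the ERG channel of slow deactivation. The silent class, with 10 members, held 16.6 to 19.2%, nearly all of it from Kcnv2, since Kcng4 (29.1 ± 4.77 TPM) and Kcnf1 (6.75 ± 0.44 TPM) followed at a distance. The 14 auxiliary members held 24.4 to 27.2%, led by Kcnab2, Kcne2 (178 ± 26.2 TPM), a small membrane subunit, and Kcnip3 (84.4 ± 12.6 TPM), a calcium sensor that binds A-type channels. The 10 inward rectifiers held 14.2 to 16.6%, led by Kcnj14, Kcnj9 (113 ± 20.6 TPM) and Kcnj5 (21.4 ± 1.25 TPM), of which Kcnj9 and Kcnj5 are G protein-gated. The 11 tandem-pore members held 3.51 to 3.96%, led by Kcnk1 (65.5 ± 1.39 TPM), Kcnk3 (30.4 ± 4.46 TPM) and Kcnk9 (10.3 ± 1.58 TPM), of which Kcnk3 and Kcnk9 are acid-sensitive leak channels. The 7 calcium- or sodium-activated members held 2.87 to 3.28%, most of it from Kcnma1 (59.2 ± 10.8 TPM), the pore of the large-conductance calcium-activated channel, ahead of the sodium-activated Kcnt1 (11.3 ± 2.40 TPM) and the small-conductance Kcnn2 (10.1 ± 1.20 TPM). All of these errors are SDs over 3 mice. Merged exon lengths include untranslated exons that a tissue may not use, and with coding length in their place several orders turned. Kcnv2 came to 471 TPM and was then not the highest member. Kcna5 came to 49.7 and Kcnh2 to 25.8 TPM, both below Kcna2 at 103.8 TPM, and Kcnj14 came to 174.6 TPM, below Kcne2 at 258 TPM.

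No member passed the test in any of the 7 comparisons made. To pass, a gene needed a p of 0.05 or less after Benjamini-Hochberg adjustment over 18628 genes (edgeR's quasi-likelihood test) together with a log2 fold change whose size was 0.5 or more. All 79 members except Kcnq1 passed edgeR's filter on low counts and were tested. Against P30, 0 of 78 members passed at each later age, beside 0% of all genes at P32, 0.660% at P34 and 0% at P38. For the 9 cKO mice as 1 group 0 of 78 passed beside 0.0537% of all genes, or 10 genes. Between ages 0 of 78 passed from P32 to P34, from P34 to P38 and from P32 to P38, beside 0.242%, 0.199% and 0% of all genes. Against P30 the smallest adjusted p of a member was 0.698 (P32), 0.133 (P34), 0.847 (P38) and 0.884 (9 cKO mice), and it was 0.0948 from P32 to P34, 0.440 from P34 to P38 and 0.114 from P32 to P38. DESeq2's Wald test at the same thresholds passed 2 members at P34 (Kcne1 and Kcnk5, both lower) beside 1.98% of all genes. From P32 to P34 it passed 12 beside 7.56%, Kcne1 and Kcnk5 among them. From P34 to P38 it passed 2, again Kcne1 and Kcnk5, beside 0.774%, and from P32 to P38 5 beside 5.01%. DESeq2's test passed 0 members against P30 at P32, at P38 and in the 9 cKO mice, beside 0.134%, 0.242% and 0.248% of all genes. In edgeR's test without P32 mouse 6, 18 members passed from P32 to P34, Kcne1 and Kcnk5 among them, beside 14.3% of all genes. In the same setting 11 passed from P32 to P38, beside 10.2%. Kcne1 and Kcnk5 had no P34 library at 10 counts and are members only through the other conditions, so nothing is read from their calls. Without P30 mouse 1, 1 member passed in the 9 cKO mice against P30, beside 0.252% of all genes.

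With the same limit on the fold change but p not adjusted (hereafter the unadjusted threshold), the counts of members against P30 were small. At P32 no member was higher and 3 were lower, where 1.13% of all genes were higher and 1.77% lower. At P34 2 were higher and 3 lower, where 0.854% of all genes were higher and 5.42% lower. Of the lower members, Kcng3 at P32 and Kcne1 and Kcnk5 at P34 had no library at 10 counts in that condition and are members only through the others, so they support nothing about the members. At P38 3 were higher and 1 lower, where 0.805% were higher and 2.66% lower. For the 9 cKO mice as 1 group 1 was higher and 1 lower, beside 0.311% and 1.57%. These counts rested on single mice. At P32 11 members were lower without P32 mouse 6 and 5 without P30 mouse 1, beside 5.64% and 3.06% of all genes. At P34 10 were higher without P30 mouse 3 (beside 2.07%), 8 without P34 mouse 8 (286 of 19013 genes), 4 without P32 mouse 4 (1.29%), 1 without P34 mouse 9 (0.697%) and 0 without P30 mouse 1 or P30 mouse 2 (0.488% and 0.463%). The lower count at P34 was 5 without P30 mouse 1 and 1 without P34 mouse 8, beside 4.86% and 6.88%. At P38 6 were higher without P30 mouse 3 and 0 without P30 mouse 1, beside 1.65% and 0.546%, and 0 were lower without P30 mouse 2, beside 1.96%. In the 9 cKO mice 3 were lower and 0 higher without P30 mouse 1, beside 1.94% and 0.299%. There 2 were lower without P32 mouse 4, beside 2.04%, and without P30 mouse 2 none was lower or higher, beside 1.03% and 0.200%. The median log2 fold change of the 78 members was -0.08 (P32), 0.20 (P34) and 0.12 (P38), where that of all genes tested was -0.01, 0.00 and -0.01. At P34 63 of the 78 members had a positive value, beside 9282 of all 18628 genes tested. All 3 P34 mice lay above all 3 P30 mice in 20 members (25.6%), while this held for 10.4% of all genes. All 3 lay below in 4 members (5.13%), while this held for 9.67% of all genes. By mouse, the members' median log2 deviation from their mean over all mice was 0.277, 0.017 and 0.142 at P34. At P30 it was -0.183, -0.041 and 0.090, so the mice of these ages overlapped. Members share the libraries of the same mice, so these counts are not of independent observations. The summed markers of rods came to 75537 to 99282 CPM at P34 against 66740.2 to 73287 at P30 and those of ganglion cells to 1228 to 1754 against 909 to 1289, and their part in the result was not tested. With sex as a term of the fit, 10 members were higher at P34 at the unadjusted threshold and 3 lower, beside 2.22% and 6.54% of all genes, and with a score of markers from outside the retina as a term 3 were higher and 0 lower, beside 1.28% and 2.35%.

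The silent Kcnv2 (chr19:27322588-27337179) had 642, 677 and 611 CPM in the P30 mice, 406, 542 and 651.5 in the P32 mice, 736, 734.5 and 698.5 in the P34 mice, and 919, 666 and 635 in the P38 mice. The P34 mice lay above the P30 mice and the P38 mice overlapped them, with log2 fold changes of 0.17 (SE 0.18) and 0.20 (SE 0.18). Fewer cells of a type and less RNA per cell cannot be told apart in these whole-retina libraries.

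Kcnc4, a fast-gating channel of the Shaw family, had the smallest p of the members at P34. It had 21.7, 21.1 and 21.8 CPM at P30, 26.4, 24.6 and 27.3 at P32, 30.9, 24.9 and 32.8 in the P34 mice, and 22.9, 25.5 and 22.9 at P38. All 9 cKO mice lay above all 3 control mice, some of those at P38 only by little. The share of all genes for which this held was not computed. For the 9 cKO mice as 1 group the log2 fold change was 0.30 (SE 0.11), and Kcnc4 did not pass the test. The log2 fold change was 0.28 (SE 0.11) at P32 and 0.46 (SE 0.11, adjusted p = 0.133 by edgeR) at P34, both under the fold limit of 0.5. Kcna2, a delayed rectifier of axons, had 109, 123 and 149 CPM at P30 and 181, 163 and 181 at P34, without overlap (log2 fold change 0.46, SE 0.15, adjusted p = 0.293). The A-type channel gene Kcnd2 had 19.3, 16.9 and 21.8 CPM at P30, 30.7, 22.6 and 27.7 at P34 and 28.0, 24.6 and 22.2 at P38, and both later ages lay above P30 (log2 fold changes 0.48, SE 0.16, and 0.37, SE 0.16). Kcna5 had 72.97 ± 2.09 CPM at P30 and 62.0 ± 9.20 at P38 (SD, n = 3), with P38 mouse 10 the lowest at 51.7 CPM.

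**Figure D2:**
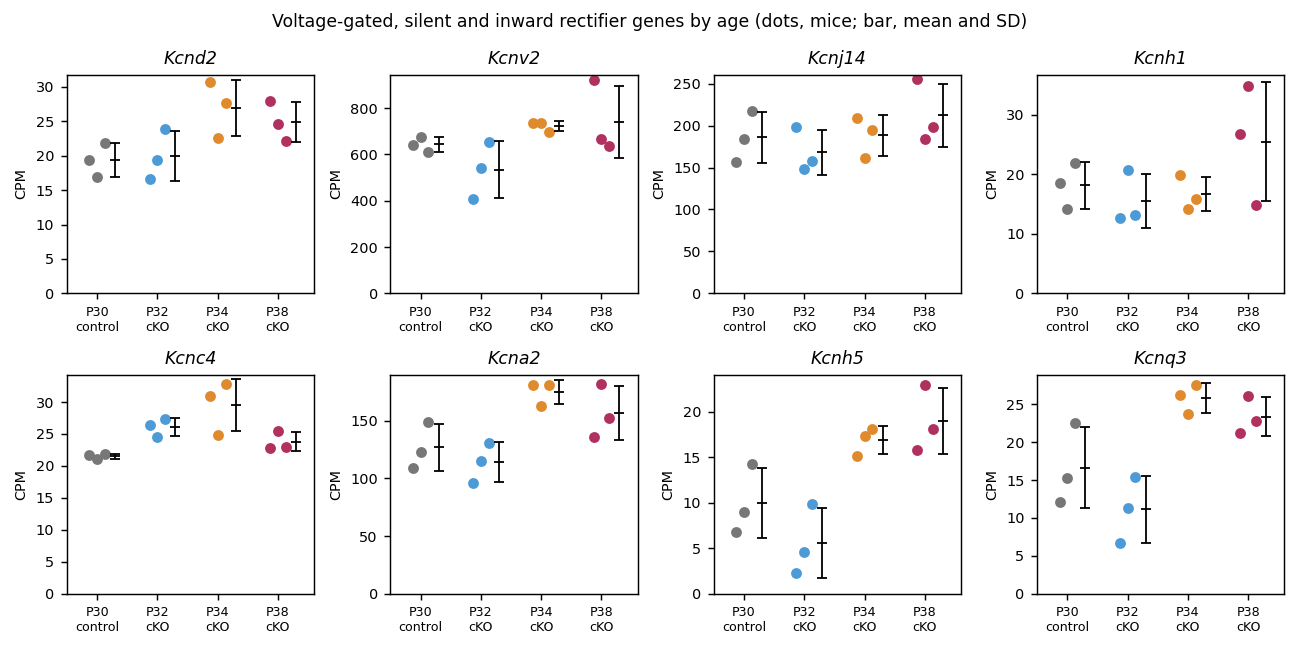
CPM of 8 members in each mouse at P30 (control), P32, P34 and P38 (cKO). Dots are mice, and the bar beside them gives the mean and SD. Kcnc4 is above all P30 mice in all cKO mice, and Kcnh5 and Kcnq3 spread widely within P30 and P32.

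Kcnh5, of the ether-a-go-go family, and Kcnq3, a subunit of the M current that damps repetitive firing, spread widely within a condition. Kcnh5 had 6.74, 8.93 and 14.2 CPM at P30, 2.31, 4.60 and 9.83 at P32, 15.2, 17.3 and 18.1 in the P34 mice, and 15.8, 23.0 and 18.1 at P38. All P34 and P38 mice lay above all P30 mice, with a log2 fold change of 0.94 (SE 0.41, adjusted p = 0.847 by edgeR) from P30 to P38 and 1.76 (SE 0.42, adjusted p = 0.114) from P32 to P38. Kcnq3 had 12.1, 15.3 and 22.5 CPM at P30, 6.69, 11.3 and 15.5 at P32, 26.3, 23.7 and 27.6 in the P34 mice, and 21.2, 26.2 and 22.8 in the P38 mice. Those of P34 lay above the P30 mice (log2 fold change 0.64, SE 0.27, adjusted p = 0.442), and the P38 mice overlapped them. The paper lists Kcnq3 among the genes upregulated at P34, by its own DESeq2 comparison with the control mice. Here Kcnq3 passed at P34 against P30 neither by edgeR nor by DESeq2's Wald test. The Shaker-type Kcna3 had the widest range of the class, from 0.09 CPM in P32 mouse 4, which is 3 counts, to 3.57 in P38 mouse 11. Its range was 4.69 in log2 CPM computed after adding a prior of 2 counts, which shrinks low values. Kcnh1 had 18.2 ± 3.92 CPM at P30, 15.6 ± 4.52 at P32, 16.7 ± 2.89 at P34 and 25.5 ± 10.0 at P38 (SD, n = 3), with P38 mice 10 and 11 at 26.8 and 34.8 CPM and mouse 12 at 14.9, within the P30 range. Kcnb2, a delayed rectifier of the Shab family, had 29.6 ± 5.93 CPM at P30 and 31.8 ± 8.17 at P38, and Kcnh2 had 73.2 ± 2.87 and 81.0 ± 14.9, all overlapping.

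The other silent members are far lower in level. Kcng4 had 27.2 ± 1.41, 28.3 ± 3.49, 28.7 ± 2.46 and 27.1 ± 2.21 CPM at P30, P32, P34 and P38 (SD, n = 3), and its range over the 12 mice, 0.37 on that log2 scale, was the narrowest of the 79 members. Kcnf1 had 7.29, 7.81 and 9.004 CPM at P30 and 14.9, 9.70 and 9.21 at P34 (log2 fold change 0.49, SE 0.22, adjusted p = 0.472 by edgeR), without overlap. Kcng3 was close to the count limit and had 0.221, 0.162 and 0.357 CPM at P30 and 0.0600, 0.0775 and 0.0739 at P32, all below the control mice (log2 fold change -1.72, SE 0.58, adjusted p = 0.698), where the P32 values are at or under the level of 3 counts (0.0473 to 0.102 CPM over the libraries). All 10 silent members had a positive log2 fold change at P34, with a median of 0.38, and none passed the test. Of all genes 9282 of 18628 were positive at P34, with a median of -0.001. At P32 5 of the 10 silent members were positive and at P38 7. Kcnv1 ranged from 0.09 to 0.608 CPM.

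Among the inward rectifiers Kcnj14 (chr7:45816460-45824782) had 186 ± 30.3, 168 ± 26.6, 188 ± 24.4 and 212 ± 37.9 CPM from P30 to P38 (SD, n = 3). All ages overlapped, with log2 fold changes against P30 of -0.15 (SE 0.17), 0.02 (SE 0.17) and 0.19 (SE 0.17). Kcnj9 had 119 ± 11.9 CPM at P30 and 115 ± 26.0 at P38. Kcnj5 had 23.0, 24.1 and 27.5 CPM at P30 and 36.5, 29.4 and 30.4 at P34, without overlap (log2 fold change 0.37, SE 0.15, adjusted p = 0.425 by edgeR). Kcnj6 had the widest range of the class, from 0.99 CPM in P32 mouse 4 to 8.23 in P38 mouse 11, with 4.82 ± 1.30 CPM at P30 and 7.16 ± 0.70 at P34.

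Among the calcium- or sodium-activated members Kcnma1 had 206, 273 and 266 CPM at P30, 131, 203.5 and 248 at P32, 278, 318 and 328 in the P34 mice, and 207, 367 and 299 in the P38 mice. Those of P34 lay above the P30 mice by little (log2 fold change 0.31, SE 0.24, adjusted p = 0.684 by edgeR) and the P38 mice spread over both. Kcnt1 and Kcnn2 overlapped P30 at P34 and at P38, with 26.3 ± 3.64 and 29.4 ± 10.3 CPM for Kcnt1 and 18.6 ± 0.81 and 16.7 ± 4.24 CPM for Kcnn2 at P30 and P38 (SD, n = 3). Of the 14 auxiliary members none was higher at P34 or P38 at the unadjusted threshold, beside 0.854% and 0.805% of all genes. Only Kcne1 was lower at P34, beside 5.42% of all genes. It had no P34 library at 10 counts, so nothing is read from this call. Kcnab2 had 369 ± 14.5, 385 ± 48.1, 434 ± 62.9 and 442 ± 28.9 CPM over the 4 conditions, and Kcne2 had 77.2 ± 2.64 CPM at P30 and 72.3 ± 15.9 at P38. Kcnip3 had 73.6 ± 2.84 CPM at P30 and 69.9 ± 13.5 at P38. Kcnmb4, a subunit that slows the channel of Kcnma1, had 15.3 to 16.6 CPM at P30 and 25.3, 15.5 and 16.3 at P32, where the highest value was that of mouse 4. Genes on the opposite strand cover 31.5% of its merged exon. Kcnmb2 had 3.62 ± 0.62 CPM at P30 and 2.91 ± 0.34 at P38.

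Among the tandem-pore channels Kcnk1, a weak leak channel, had 36.5 ± 4.19, 35.4 ± 2.49, 34.1 ± 7.86 and 31.2 ± 1.10 CPM over the 4 conditions (SD, n = 3), and its P38 mice lay just below the P30 mice (log2 fold change -0.23, SE 0.15). Kcnk3 had 29.7 ± 1.09 CPM at P30, 33.4 ± 1.81 at P32 and 28.2 ± 4.58 at P38, and Kcnk9 had 31.3 ± 4.38 and 33.0 ± 9.45 CPM at P30 and P38. Kcnk10, a stretch-sensitive leak channel, had 1.92, 1.70 and 1.81 CPM at P30 and 0.90, 1.14 and 1.503 at P32, without overlap (log2 fold change -0.61, SE 0.25, adjusted p = 0.698 by edgeR), and 1.80 to 2.25 CPM at P38. Kcnk15 had 0.126, 0.141 and 0.357 CPM at P30, 0.442, 0.367 and 0.677 at P34 and 0.558, 0.446 and 0.679 at P38, and both later ages lay above P30 (log2 fold changes 1.30, SE 0.50, and 1.49, SE 0.50, adjusted p = 0.395 and 0.847). Kcnk6 had 0.463 ± 0.132 CPM at P30 and 0.262 ± 0.036 at P34 (log2 fold change -0.79, SE 0.36, adjusted p = 0.477).

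**Figure D3:**
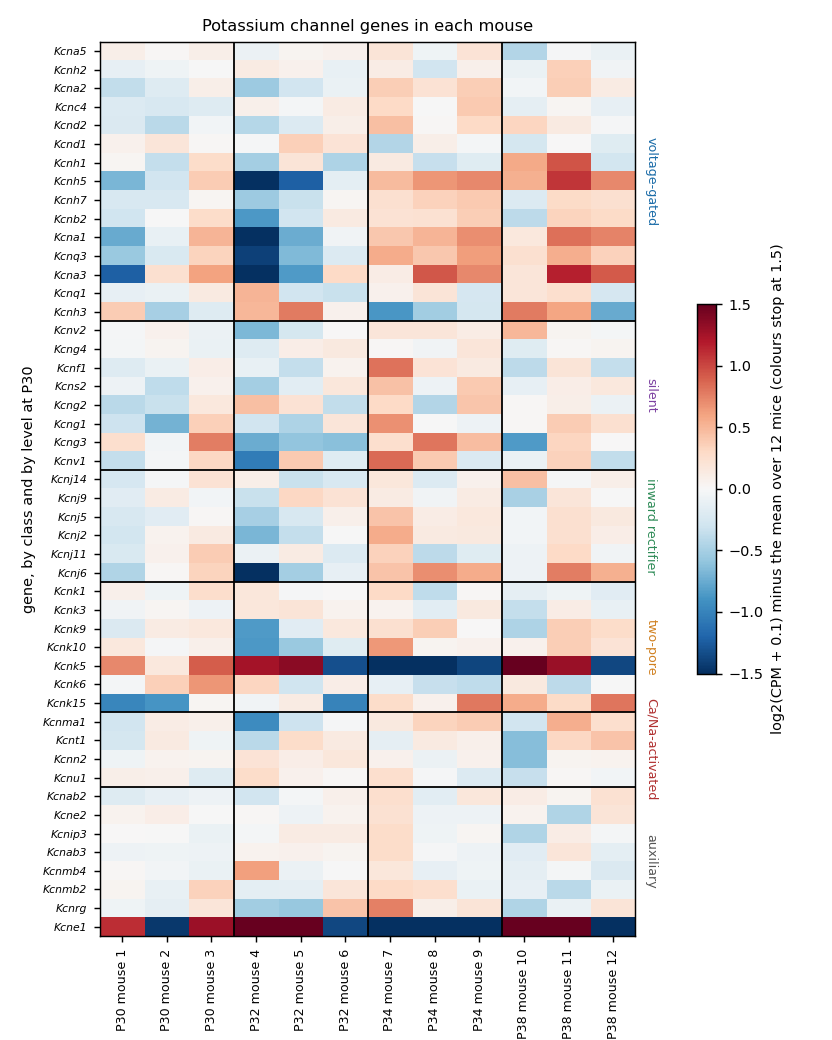
Heat map of 48 of the 79 members (rows, by class and by level at P30) in the 12 mice (columns), as log2(CPM + 0.1) minus the mean over the 12 mice. P32 mouse 4 is low in most of the voltage-gated members shown, Kcnh5, Kcna1, Kcnq3, Kcna3 and Kcnj6 share its low values, and Kcne1 and Kcnk5 switch between high and low from mouse to mouse.

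Kcne1 and Kcnk5 were present or near 0 from mouse to mouse. They reached 10 counts in 2 and 3 libraries at P30, in 2 each at P32 and at P38 and in 0 at P34, so that they are members only through the conditions where they are high, and their difference from P34 is a description. Kcne1 (chr16:92345982-92359468) encodes a small subunit that slows the channel of Kcnq1, and it had 46, 2 and 28 counts at P30, 62, 42 and 2 at P32, 0 in each of the 3 mice at P34, and 54, 56 and 1 at P38. Kcnk5 (chr14:20140057-20181809), an alkaline-activated leak channel of epithelia, had 39, 19 and 24 counts at P30, 31, 39 and 3 at P32, 1, 2 and 2 in the P34 mice, and 54, 41 and 2 at P38. The mean of Kcne1 was at least 6.20-fold higher at P30, 11.6-fold at P32 and 10.3-fold at P38 than the level of 3 counts in each P34 library (mean 0.0860 CPM). Kcnk5 at P30 was 11.9 times its P34 level over the summed counts (95% exact interval 4.91 to 37.7, counting error only). The adjusted p at P34 against P30 was 0.385 for Kcne1 and 0.293 for Kcnk5 by edgeR. Within P32 the mouse with 2 and 3 counts of these genes, mouse 6, had the lowest lens marker sum (824 CPM, against 36013 and 48527), and the 3 P34 mice had 289, 814 and 610 CPM. At P38 mouse 12 had 1 and 2 counts but a lens marker sum of 6079 CPM, above the 5394 CPM of mouse 11 with 56 and 41 counts, and at P30 mouse 2, with 585 CPM of lens markers, had 2 counts of Kcne1 but 19 of Kcnk5. The 7 markers of ciliary body and iris summed to 8.57 to 18.3 CPM in the 3 P34 mice, P32 mouse 6 and P38 mouse 12, where Kcnk5 had 1 to 3 counts, and to 25.2 to 53.9 CPM in the other 7 mice, where it had 19 to 54. These sums did not overlap, whereas Kcne1 had 2 counts in P30 mouse 2, which had the highest sum of the 12. The part of RNA from these tissues in these results was not tested. Kcnq1, the pore partner of Kcne1, had 0.172 ± 0.0094 TPM at P30 (SD, n = 3) and was below the filter of the test.

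**Figure D4:**
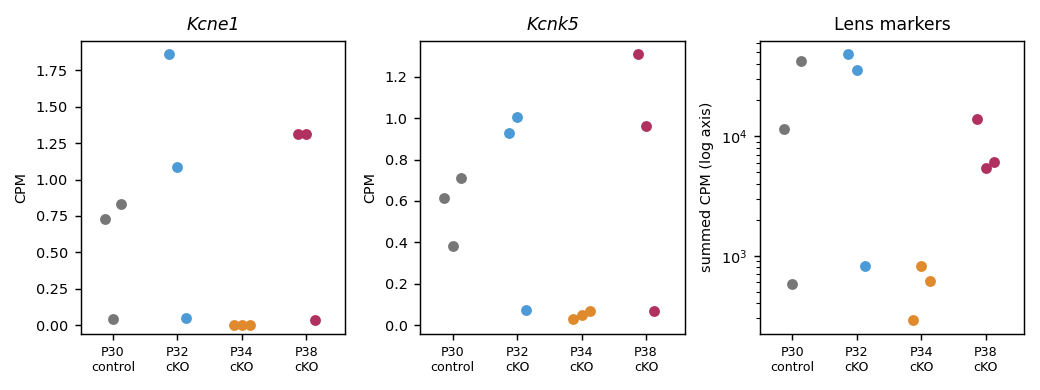
CPM of Kcne1 and Kcnk5 in each mouse, beside the summed CPM of 10 lens markers on a log axis. Kcne1 and Kcnk5 are near 0 in the 3 P34 mice, P32 mouse 6 and P38 mouse 12, and the lens sums of the P34 mice and of P32 mouse 6 are at or below 824 CPM.

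More members passed the unadjusted threshold between P32 and the later ages than against P30. From P32 to P34, 14 members were higher and 3 lower (Kcne1, Kcnk5 and Kcnh3) at the unadjusted threshold, beside 5.49% and 8.93% of all genes, and the median log2 fold change of the members was 0.27 beside -0.02 over all genes. From P32 to P38, 11 were higher and 0 lower, beside 5.68% and 6.23%, and from P34 to P38 3 were higher (Kcne1, Kcnk5 and Kcnh3) and 1 lower (Kcnf1), beside 3.01% and 0.800%. Kcne1, Kcnk5 and Kcnh3 had no P34 library at 10 counts and are members only through the other conditions, where they are higher, so nothing is read from their counts at P34. Kcng3 is likewise a member with no P32 library at 10 counts. Among the 14 members higher at P34 than at P32 were Kcna1, Kcna2, Kcnb2, Kcnf1, Kcng3, Kcnh5, Kcnh7, Kcnj2, Kcnj6, Kcnk10, Kcnma1 and Kcnq3, and 8 of the 14 are voltage-gated. The largest values among them with more than 1 CPM at P32 were those of Kcnh5 (1.59, SE 0.42), Kcna1 (1.30, SE 0.44), Kcnj6 (1.29, SE 0.42) and Kcnq3 (1.21, SE 0.27), with adjusted p between 0.0948 and 0.111 by edgeR. In 12 of these 14 members P32 mouse 4 was the lowest of the 12 mice, as it was in 36 of all 79 members. The median merged exon length was 10131 bases for the 14 members and 4087.5 for the other 64 tested. Without P32 mouse 4, 8 members were higher and 2 lower from P32 to P34, beside 2.28% and 5.10% of all genes, and 7 were higher from P32 to P38, beside 2.55%. Without P32 mouse 6, 23 were higher and 4 lower from P32 to P34, beside 11.1% and 12.7%, and 17 were higher and 0 lower from P32 to P38, beside 10.9% and 10.2%. From P32 to P38 17 were higher without P38 mouse 10 and 7 without P38 mouse 11, beside 6.33% and 4.00%. From P34 to P38 5 were higher and 0 lower without P38 mouse 12, beside 3.56% and 1.03%. The lower count there was 2 without P34 mouse 9 or P38 mouse 11 (0.807% and 0.818%) and 0 without P34 mouse 7 or P38 mouse 10 (0.754% and 0.550%). With the score of markers from outside the retina as a term, 7 were higher and 0 lower from P32 to P34, beside 2.78% and 3.67%, and from P34 to P38 0 were higher and 0 lower, beside 1.34% and 1.15%. The part of transcript length in these differences was not tested.

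**Figure D5:**
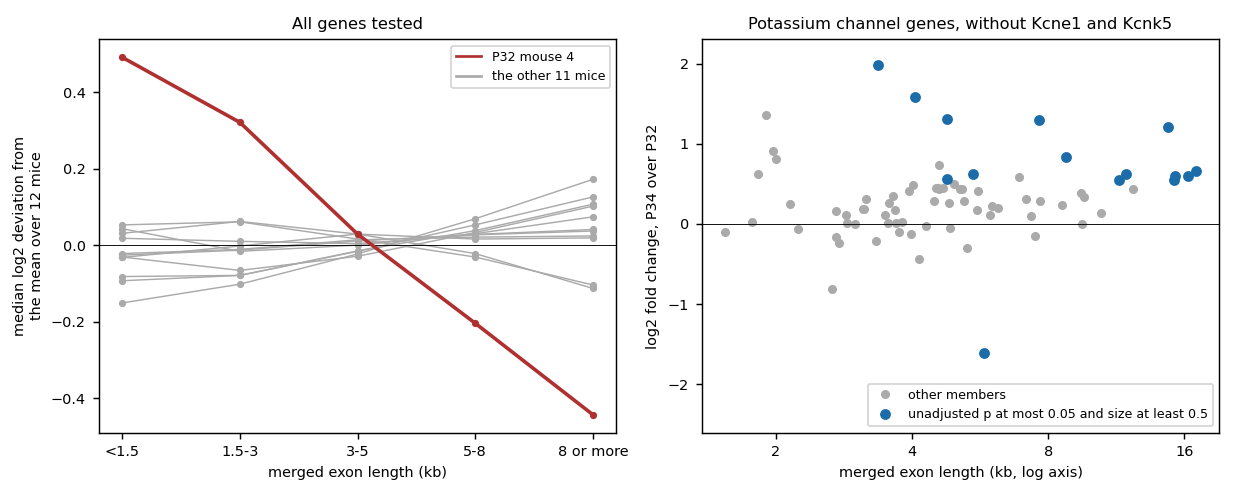
Left, median log2 deviation of all genes tested from their mean over the 12 mice, by merged exon length, with 1 line per mouse. P32 mouse 4 falls from 0.49 to -0.44 and the other 11 mice stay between -0.15 and 0.17. Right, log2 fold change from P32 to P34 of the members against merged exon length on a log axis, leaving out Kcne1 and Kcnk5. The 14 marked members above 0 have a median length of 10131 bases.

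Of 26 other genes that handle potassium or share its currents, 25 passed the test in no comparison. Atp1b3 was lower at P34 by -1.04 (SE 0.37, adjusted p = 0.349). The 6 cyclic nucleotide-gated channel and potassium-dependent exchanger genes of the list had log2 fold changes from 0.06 to 0.49 at P38 and none passed the test. At P32 all 6 were negative, from -0.06 (Cnga1) to -0.48 (Slc24a2), and again none passed. The upper end of the range at P38 was the exchanger Slc24a1 (0.49, SE 0.19, adjusted p = 0.847), ahead of the rod channel subunit Cngb1 (0.44, SE 0.13, adjusted p = 0.813). Dpp10, a subunit of A-type channels such as that of Kcnd2, was 0.505 higher at P34 (SE 0.16, adjusted p = 0.293), and Dpp6 0.33 (SE 0.12, adjusted p = 0.382). The glial inward rectifier Kcnj10 had a log2 fold change of 0.39 (SE 0.15, adjusted p = 0.403) at P34. At P34 2 of the 26 were lower and 1 higher at the unadjusted threshold, beside 5.42% and 0.854% of all genes, and the list's median was 0.14 where that of all genes was 0.00.

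OTX2 and its photoreceptor relative CRX bind the core motif TAATCC, and promoter windows were searched for it on both strands (TAATCC or GGATTA). RefSeq windows (GRCm38.p6, 250 bases before to 50 after a start) were found for 54 of the 79 members, in 78 windows. The motif was in 3 of these (3.85%) and in 7.06% of all 32851 windows. The 3 are shown with the motif in capitals, 5′ to 3′ on the strand of the gene, because they are the members' only matches.
Kcnj9: gctgtggcgtgtGGATTAgccagagtggta
Kcng4: tgatggagagatTAATCCtaagcccttcct
Kcnrg: tcccctgtttccTAATCCtatataacatgg
They lie at chr1:172329402-172329431 (minus strand), chr8:119635668-119635697 (minus strand) and chr14:61607408-61607437 (plus strand), with the motif starting at 97, 5 and 37 bases before the start of the transcript. Kcnj9, Kcng4 and Kcnrg had log2 fold changes of 0.10 (SE 0.18), 0.08 (SE 0.115) and 0.46 (SE 0.39) at P34, and none passed the test. A match is a description of these letters and not of binding. Among the members for which no window was found were Kcna1, Kcnab3, Kcnb2, Kcnd1, Kcne1, Kcng1, Kcng2, Kcnh3, Kcnj11, Kcnj14, Kcnk3, Kcnk6, Kcnk9, Kcnn2, Kcnq1, Kcnq3, Kcns2, Kcnt1, Kcnu1, Kcnv1 and Kcnv2.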

How the data were processed

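Total RNA of retina with pigment epithelium from 12 mice was sequenced by the authors as stranded mRNA libraries of 50 bp single reads, base called with bcl2fastq 2.17.1.14, mapped to mm10 with STAR 2.5.3a and counted per Ensembl gene with HTSeq 0.6.1p1. The authors deposited whole-number counts per gene without normalization, 1 file per mouse. The strand setting of the counting is not given in the sources used here. No 2 libraries held the same counts (chi-square per degree of freedom 21.6 to 281 within a condition). Symbols, positions and exon lengths came from GENCODE M21 (GRCm38), which named 99.9% of the genes counted.

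Genes were tested in edgeR 4.0.16 (R 4.3.3) with TMM scaling, edgeR's filter on low counts and 1 quasi-likelihood fit of all 12 mice with 1 mean per condition, or 2 groups for the 9 cKO mice against P30. P-values measure the spread between mice. On counts simulated for P34 against P30 (18373 genes), 67 of 100 genes changed by a log2 of 1 and 90 of 100 changed by 2 were called, with 3 of 18173 unchanged genes. The changed genes were taken from those above a limit on the mean count, and each gene was drawn independently. These rates were thus not obtained for members near the floor or with shifts shared by many genes, such as those by transcript length. CPM of 3 counts is 0.0473 to 0.102 CPM, a floor for counting error only. Alternatives were DESeq2 1.42.0, other scaling, filters, fits and covariates, and leaving out each mouse.

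The 79 members, the lists and the tests were chosen with earlier results of these data known. The text names the 3 highest members of each class at P30, the 3 with the smallest p in each direction at each age against P30, the member of widest range in each class, and a list that holds Kcnv2, Kcnb2, Kcnj14, Kcnh1, Kcnma1 and Kcnq3, which makes 37 genes. Some of these and 1 of the other potassium genes are not reported here. Other members are named where a count or a sequence concerns them and were chosen after their values were seen. Exons of genes on the opposite strand overlap 23 members, 5 of them over more than 10% of their length, and 2 members overlap a gene on the same strand.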

Additional observations from a re-analysis of the deposited data

How the results depend on the processing

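In the reported fit no member was called in any of the 7 comparisons. With DESeq2's Wald test 2 were called at P34 against P30 (beside 1.98% of all genes), 12 from P32 to P34 (7.56%), 2 from P34 to P38 (0.774%) and 5 from P32 to P38 (5.01%). With no filter on low counts 6 were called from P32 to P34 (1.93%) and 2 from P32 to P38 (0.591%), and with only the 2 conditions in the fit 1 (Kcnk5) was called at P34 against P30 (1.28%). Kcne1 and Kcnk5 made up all calls at P34 against P30 and from P34 to P38. Both were also among those from P32 to P34 in DESeq2's test, with no filter and without P32 mouse 6. They are members only through conditions other than P34, so nothing is read from their calls. With p not adjusted, 3 members passed against P30 in the P32 mice (beside 1.13% of all genes higher and 1.77% lower), 5 in the P34 mice (0.854% and 5.42%) and 4 in the P38 mice (0.805% and 2.66%), 17 from P32 to P34 (5.49% and 8.93%), 4 from P34 to P38 (3.01% and 0.800%), 11 from P32 to P38 (5.68% and 6.23%) and 2 in the 9 cKO mice against P30 (0.311% and 1.57%). Leaving out 1 mouse at a time gave 0 to 18 calls from P32 to P34 and 0 to 11 from P32 to P38, the highest without P32 mouse 6 (14.3% and 10.2% of all genes), and 0 to 1 in the 9 cKO mice against P30, the highest without P30 mouse 1 (0.252%). The cause of these changes was not tested. With p not adjusted, Kcne1, Kcnk5, Kcnh3 and Kcng3 are again among the members that passed, and nothing is read from them. The other 137 counts under alternatives were 0. The median log2 fold change of the members moved by less than the spread between mice (a pooled SD of 0.15) under all alternatives run. It lay between 0.12 and 0.30 at P34 against P30 and between 0.20 and 0.35 from P32 to P34, and it took both signs at P32 against P30 (-0.13 to 0.01) and in the 9 cKO mice (-0.03 to 0.13). No log2 fold change of a named member with an unadjusted p of 0.05 or less changed sign. With coding length in place of merged exon length, the P30 level of 28 of the 37 members picked by the naming rule moved by more than its SD. Replicate numbers differ between conditions. No paired analysis was possible because no number is shared.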
